A study of Mus musculus with 20 samples.

Results

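The 10 genes described here, of 46603 gene identifiers counted, are hepcidin and genes of hepatic iron handling. They were chosen by name, with no measured value in the rule, and matched by Ensembl identifier to GENCODE M21 symbols. They are Hamp, Hamp2, Tfr2, Tfrc, Trf, Slc40a1, Bmp6, Id1, Smad7 and Fth1, and all 10 passed the filter on low counts. Liver poly(A) RNA of 10 male mice aged 2 months was sequenced, 5 wild type (WT, C57BL/6J from a vendor) and 5 EedHepKO (KO). The KO mice carry Alb:Cre, a recombinase driven by the hepatocyte albumin promoter, and a floxed Eed gene (loxP at exons 3 and 6), which encodes EED, a core subunit of the histone methyltransferase complex PRC2. Loss of Eed was not measured by cell type, and the RNA holds all cells of the liver. Each mouse gave a baseline sample (lobes 1, 2 and 3, removed at a partial hepatectomy, PHx, of most of the liver) and a sample after PHx (lobes 4, 5 and 6), which makes 4 groups of 5. Samples after PHx were taken at 30 h (1 per genotype), 40 h (2) and 48 h (2). Genotype cannot be told apart from colony of origin, nor PHx from lobe.

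Hepcidin, encoded by Hamp, is the liver hormone that lowers plasma iron: it binds ferroportin (Slc40a1), the only known cellular iron exporter, and causes its degradation. Hepatocytes set Hamp transcription through BMP ligands such as BMP6, released by sinusoidal endothelial cells, which act through receptor SMADs on Hamp, Id1 and Smad7, and through STAT3 in inflammation. TFR2 senses iron-loaded transferrin (Trf) at the hepatocyte surface, while TFRC takes it up. In iron-poor cells, iron regulatory proteins bind hairpins in mRNA, blocking translation when the hairpin lies in the 5′ UTR and protecting the mRNA from decay when it lies in the 3′ UTR.

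The mouse has a second hepcidin gene, Hamp2, next to Hamp on chromosome 7. The 250 bases before each RefSeq start site are shown because Hamp2 fell after PHx in all 10 mice and Hamp did not (GRCm38.p6, minus strand; Hamp at chr7:30944030-30944279 and Hamp2 at chr7:30924182-30924431). Capitals mark GGCGCC, the core of the BMP-responsive element of hepcidin, or the bases in its place, and a match to TTCNNNGAA, the STAT-type motif.
Hamp: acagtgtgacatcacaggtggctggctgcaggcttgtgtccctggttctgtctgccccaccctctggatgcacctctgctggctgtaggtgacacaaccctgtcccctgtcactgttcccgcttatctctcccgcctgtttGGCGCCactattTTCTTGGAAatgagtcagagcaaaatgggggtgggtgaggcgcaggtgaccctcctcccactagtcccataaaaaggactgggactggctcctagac
Hamp2: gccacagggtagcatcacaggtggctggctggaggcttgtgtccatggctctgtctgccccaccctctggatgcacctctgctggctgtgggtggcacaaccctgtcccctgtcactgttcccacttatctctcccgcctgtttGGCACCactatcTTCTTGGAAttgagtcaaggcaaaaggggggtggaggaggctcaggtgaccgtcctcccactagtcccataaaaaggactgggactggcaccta
The windows were 89.7% identical over 253 aligned columns. In Hamp, GGCGCC lay 109 to 104 bases before the start and TTCTTGGAA 97 to 89 bases before it. Hamp2 had the same 9 bases at 94 to 86, but differed from Hamp by G4A in the other element, counted from 1 at its 5′ end. Both motifs read the same on either strand, so 1 strand was searched, and they did not overlap. GGCGCC was in 9.59% of the 32851 windows of this length in the table, TTCNNNGAA in 7.02%, and both in 0.368%. A match is a string of letters, not a site shown to be bound. The part of any base that differs between the windows in the fall of Hamp2 was not tested.

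A second set of sequences is shown because Fth1, Slc40a1 and Tfrc are the textbook mRNAs with iron-responsive hairpins. GENCODE M21 transcripts were searched on the sense strand for a C, 5 bases, the loop CAGTGN with a last base other than G, and 5 bases that pair with the first 5. Capitals mark the loop, in stretches of 30 bases.
Fth1, 5′ UTR: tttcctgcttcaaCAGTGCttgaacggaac
Slc40a1, 5′ UTR: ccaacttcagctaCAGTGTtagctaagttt
Tfrc, 3′ UTR: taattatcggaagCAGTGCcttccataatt
Tfrc, 3′ UTR: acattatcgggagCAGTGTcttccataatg
Tfrc, 3′ UTR: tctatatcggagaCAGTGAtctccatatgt
Tfrc, 3′ UTR: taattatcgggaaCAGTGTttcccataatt
They lie at chr19:9982731-9982760 (plus strand) for Fth1, chr1:45925465-45925494 (minus strand) for Slc40a1, and chr16:32631218-32631247, chr16:32631597-32631626, chr16:32631662-32631691 and chr16:32631709-32631738 (plus strand) for Tfrc, in mm10. Fth1 and Slc40a1 had 1 match each and Tfrc had 4. None of the reference transcripts of the other 7 genes held a match to these letters, which 222 of 21877 protein-coding genes did (1.01%).

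Library totals ranged from 21634890 to 30461351 counts. Eed, the targeted gene, had 16.8 ± 1.09 CPM (reads per 1000000 of the TMM-scaled library; SD, n = 5) in WT and 5.64 ± 1.44 CPM in KO at baseline, and 18.4 ± 3.98 and 4.62 ± 1.13 CPM after PHx, with no overlap between genotypes. Hepatocyte markers were abundant: the summed level of 10 hepatocyte markers was 121797 to 141851 CPM in WT at baseline and 38425 to 93839 CPM in KO after PHx. In bulk tissue, fewer cells of a type and less RNA per cell cannot be told apart. Below, a gene is called higher or lower where edgeR's quasi-likelihood test gave a Benjamini-Hochberg adjusted p under 0.05 over 14661 genes, and log2 changes carry their standard error (SE). p-values after PHx pool 3 time points.

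Per kilobase of the union of a gene's annotated exons, Hamp had the highest group mean of the 10 genes in all 4 groups. It stood at 2121 ± 708 CPM per kb (SD, n = 5) in WT at baseline. The order depends on the length used. That union is 3469 bases for Fth1 and 9000 for Slc40a1, whose reference transcripts have 929 and 3370 bases, while Hamp has 410 by either measure. Over transcript length Fth1 and Slc40a1 would stand higher relative to Hamp, and the order by that length was not computed. Fth1, the ferritin heavy chain that stores iron, followed at 493 ± 20.6, then transferrin at 117 ± 8.40 and Tfr2 at 98.9 ± 11.3. Hamp2 followed at 37.9 ± 22.2, Slc40a1 at 12.04 ± 3.68, Id1 at 5.67 ± 3.20, Tfrc at 5.52 ± 1.60, Smad7 at 2.81 ± 1.48 and Bmp6 at 0.713 ± 0.152 CPM per kb. In that order, the gap between neighbours was within the sum of their SDs for Trf and Tfr2 and for each step from Hamp2 to Smad7, and beyond it for the other steps. After PHx the gap between Hamp and Fth1 was within the sum of their SDs in both genotypes, and Fth1 was above Hamp in WT mouse 1 (554 against 23.7 CPM per kb) and KO mouse 8 (509 against 352).

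Hamp was not called in any comparison, while Hamp2 fell after PHx in both genotypes. In WT at baseline Hamp stood at 375, 1122, 935, 1022 and 895 CPM in mice 1 to 5, and after PHx the same mice had 9.72, 2340, 555, 2327 and 247 CPM. The WT values after PHx spanned both sides of the baseline range, the lowest being the 30 h mouse. In KO mice 7, 8, 10, 11 and 12 Hamp stood at 566, 423, 781, 771 and 526 CPM at baseline and at 730, 144, 905, 496 and 1837 CPM after PHx, where the highest was the 30 h mouse. So the groups overlapped in each pair, and both 30 h mice lay at an extreme, in opposite directions. The log2 change of Hamp was -0.50 (SE 0.79, adjusted p 0.712) for KO against WT at baseline, -0.41 (SE 0.79, 0.740) after PHx, 0.33 (SE 0.79, 0.811) for the response in WT and 0.42 (SE 0.79, 0.708) in KO. With SEs of this size the data leave a wide range of changes possible for Hamp. In the fit with each mouse as a block the WT response of Hamp turned to -0.87, and it was not called there either.

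Hamp2 fell with PHx in 5 of 5 WT mice and 5 of 5 KO mice. In WT it went from 13.6, 28.5, 41.8, 15.4 and 11.01 CPM to 0.218, 2.04, 0.609, 2.52 and 0.0687 CPM. KO mice went from 13.1, 14.3, 52.2, 50.8 and 25.3 to 1.95, 0.659, 2.48, 3.09 and 12.9 CPM. Within each genotype no value after PHx reached the lowest at baseline, although the 30 h KO mouse at 12.9 came close to it. The log2 change was -4.33 (SE 0.85, adjusted p 0.00185) in WT, a 20.1-fold fall, and -2.90 (SE 0.78, adjusted p 0.0107) in KO, a 7.47-fold fall. The KO value rested in part on the 30 h mouse: without KO mouse 12 after PHx it was -3.94 (adjusted p 0.00206), and all 10 fits that left out 1 library, from -3.94 to -2.58, were called. In WT such fits gave -4.86 to -3.97, all called. The difference of these responses, 1.43 (SE 1.06, adjusted p 0.593), was not called. After PHx Hamp2 was 1.93 higher in KO on the log2 scale (SE 0.79), which missed the threshold (adjusted p 0.0806) but passed it in DESeq2 (2.00, adjusted p 0.0279) and under scaling by library total alone (2.16, adjusted p 0.0350). It also passed without WT mouse 4 (2.56, adjusted p 0.0411) or without KO mouse 8 (2.25, adjusted p 0.0479) after PHx. In the other 8 fits that left out 1 library it was not called, and without KO mouse 12 it was 0.89 (adjusted p 0.390).

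Of the reads of both hepcidin genes, Hamp2 took 1.22% to 4.28% in WT at baseline and 2.26% to 6.26% in KO at baseline. After PHx it took 0.0278% to 2.19% in WT and 0.266% to 0.699% in KO. The 2.19% belongs to the 30 h WT mouse, where only 5 Hamp2 and 223 Hamp counts were seen (exact 95% interval 0.716% to 5.04%, counting error only). The other 4 WT mice after PHx had at most 0.1096%. The share was lower after PHx than at baseline in 5 of 5 WT mice and 5 of 5 KO mice. The mean log2 ratio of Hamp2 to Hamp counts fell by 4.03 in WT, or by 5.02 with the 30 h WT sample left out, and by 3.36 in KO. KO lay above WT by 0.89 at baseline and by 1.56 after PHx, or 2.55 without the 30 h WT mouse. These ratios are a description with no test, since they were formed with the shares in view. Reads that map to several places were not counted. Hamp and Hamp2 transcripts are 92.4% identical, with 60 of the 361 windows of 50 bases in Hamp also in Hamp2. Both genes may therefore lose reads, by an unknown amount. Hamp2 also shares 89 exon bases with Gm44662 on the opposite strand, and whether the counting used strand is not given in the sources used here.

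**Figure D1:**
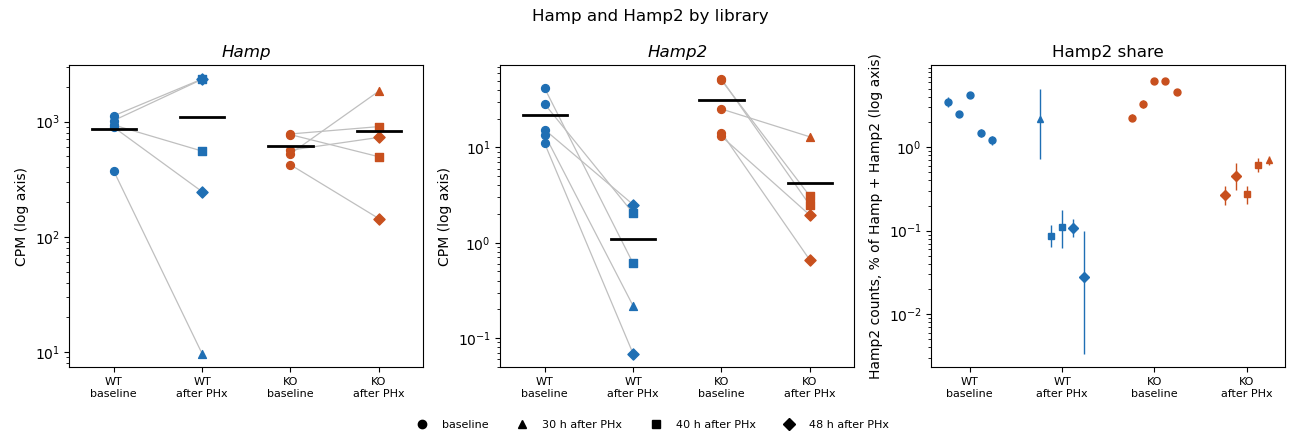
Left and middle, Hamp and Hamp2 in CPM on log axes, 1 point per library, black bars for group means and grey lines joining the samples of a mouse; right, Hamp2 as a percentage of the counts of both genes on a log axis, with exact 95% intervals. Hamp2 falls along all 10 lines, whereas Hamp rises along 2 of 5 lines in WT and 3 of 5 in KO.

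Among Tfrc, Tfr2, Trf, Slc40a1 and Fth1, the members of the 10 that sense, carry, store or export iron, Tfrc and Tfr2 were the ones called. Tfrc, the receptor that brings transferrin into cells, rose after PHx in WT and was lower in KO than in WT after PHx. In WT mice 1 to 5 it went from 45.6, 22.5, 33.6, 42.4 and 26.7 CPM to 75.8, 35.1, 54.0, 49.9 and 49.1 CPM, a rise in 5 of 5 mice. In KO mice it went from 25.2, 29.6, 23.8, 22.2 and 20.3 CPM to 26.9, 21.7, 17.3, 20.7 and 21.2 CPM, a rise in 2 of 5. After PHx every KO value lay under every WT value. Tfrc was 2.45-fold lower in KO after PHx (log2 change -1.29, SE 0.21, adjusted p 0.000208), and this was called in all 10 fits that left out 1 library (adjusted p 0.000128 to 0.000735). The WT rise of 1.55-fold (log2 change 0.63, SE 0.21, adjusted p 0.0387) was called in 5 of 10 such fits. Its adjusted p was 0.104, 0.0752 and 0.0996 without baseline mouse 2, 3 or 5, and 0.112 and 0.0609 without mouse 1 or 3 after PHx. With each mouse as a block and mouse 1 left out it was 0.0533, and in a fit of the compared samples alone 0.0621. The KO response of Tfrc was -0.17 (SE 0.21, adjusted p 0.556). Tfrc is also known to be high in erythroid precursors and in dividing cells. Erythroid markers summed to 79.5 to 177 CPM in KO and 138 to 429 CPM in WT after PHx, with 3 of 6 tested called lower in KO (8.2% of all genes), of which 1 was left without the 30 h samples. Of 12 proliferation genes, 11 were higher in the WT response and 2 in the KO response (11.4% and 17.5% of all genes), with medians of 5.54 and 1.57 on the log2 scale, and 2 were higher in KO at baseline (11.1% of all genes), with a median of 3.46. Their median for the difference of the responses was -3.83, with 0 called by edgeR either way there or between KO and WT after PHx. The part of either list in the Tfrc values was not tested. The difference of the Tfrc responses, -0.80 (SE 0.30), had an unadjusted p of 0.0136 and an adjusted p of 0.236, so it is not shown that Tfrc responded differently in the genotypes. At baseline Tfrc was -0.49 in KO relative to WT (SE 0.21, adjusted p 0.113).

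Tfr2, the iron sensor of hepatocytes, was lower in KO after PHx by 1.62-fold (log2 change -0.69, SE 0.23, adjusted p 0.0352). WT mice had 367, 320, 389, 262 and 371 CPM and KO mice had 132, 152, 344, 183 and 245 CPM after PHx. The groups overlapped through KO mouse 10 at 344 CPM, the only KO mouse above the lowest WT value. At baseline WT ranged from 364 to 465 CPM and KO from 226 to 430 CPM (log2 change -0.42, SE 0.23, adjusted p 0.234). The call after PHx was lost in 6 of 10 fits that left out 1 library, namely WT mouse 1, 3 or 5 and KO mouse 7, 8 or 11 (adjusted p 0.0645 to 0.113). It was also lost without the 30 h samples (adjusted p 0.0595), with no filter on low counts (0.0674), in a fit of the compared samples alone (0.157) and under scaling by library total alone (-0.36, 0.206). In KO mice Tfr2 was -0.60 after PHx relative to baseline (SE 0.23, adjusted p 0.0552), and with each mouse as a block it fell by 0.66 (adjusted p 0.0254). Summed hepatocyte markers moved the same way, with medians of 123870 CPM in WT and 82606 CPM in KO at baseline, and 87634 and 49422 CPM after PHx, and their part in the Tfr2 values was not tested.

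Slc40a1 encodes ferroportin, which in liver is most abundant in Kupffer cells and also present in hepatocytes. It ranged from 68.9 to 151 CPM in WT and from 126 to 211 CPM in KO at baseline, and from 38.8 to 122 and from 13.7 to 224 CPM after PHx. The KO samples after PHx thus covered more than the whole range of the other groups. Its change of 0.68 in KO at baseline (SE 0.53, adjusted p 0.416) was called only in a fit of the baseline samples alone (0.71, adjusted p 0.0228). The summed level of 12 macrophage markers was higher there too, at 628 to 804 CPM in KO against 240 to 411 CPM in WT, and its part in the Slc40a1 values was not tested. Trf, the plasma iron carrier, lay between 236 and 709 CPM in all libraries, and Fth1 between 1023 and 3253 CPM, with no call for either in the fit of all samples scaled by TMM. Trf shares 2108 exon bases with Gm20425 on the same strand, so its reads may be split. Fth1 was higher after PHx than at baseline in 5 of 5 WT mice and 4 of 5 KO mice, with log2 changes of 0.50 (SE 0.23, adjusted p 0.136) and 0.35 (SE 0.23, adjusted p 0.257). Scaling by library total alone called both Fth1 changes (adjusted p 0.00273 and 0.0233) and called Trf higher in KO at baseline (0.58, adjusted p 0.0425) and in the WT response (0.56, adjusted p 0.0422), under a scaling that moved the median of all genes up by 0.48 at baseline, 0.36 in the WT response and 0.27 in the KO response.

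**Figure D2:**
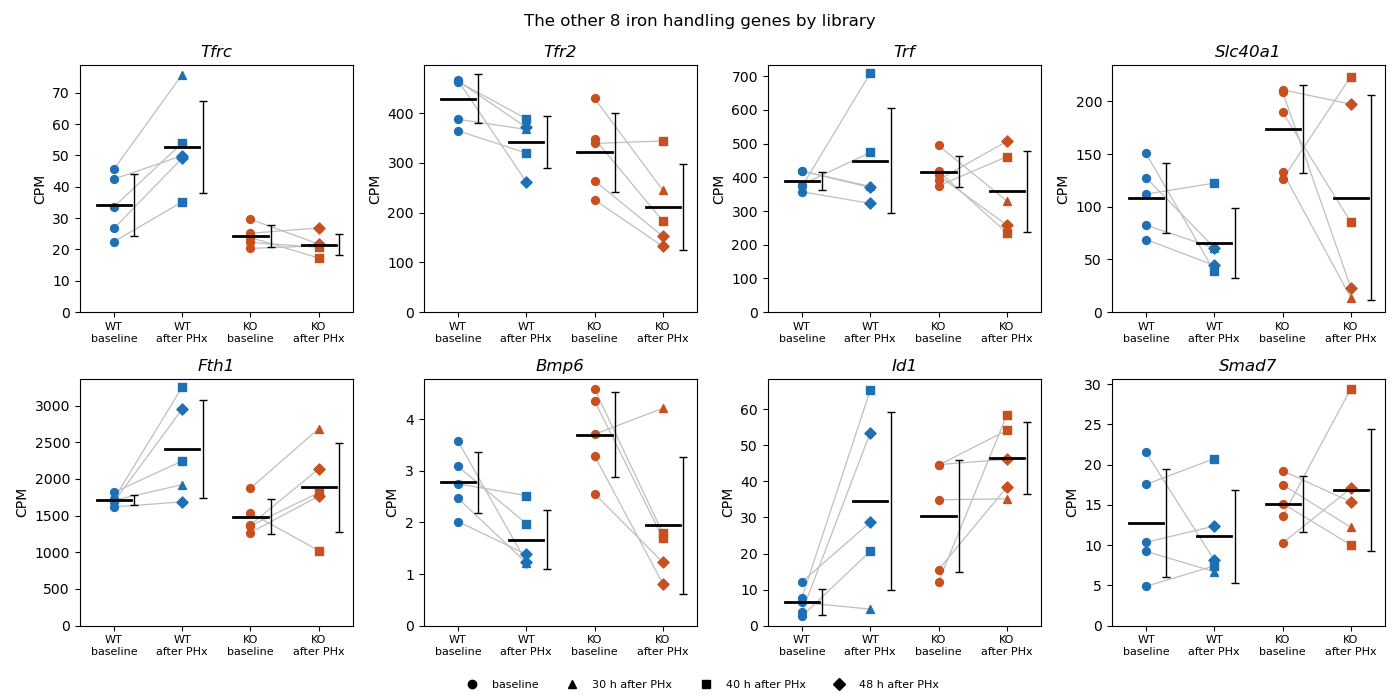
The other 8 genes in CPM on linear axes from 0, 1 point per library with shape by time, black bars for group means, error bars for SD (n = 5) and grey lines joining the samples of a mouse. For Tfrc all KO points after PHx lie under all WT points, and for Id1 the KO points at baseline lie above the WT points, the closest pair at 12.16 and 12.17 CPM.

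Of the BMP ligand and its readouts, Id1 was called and Bmp6 and Smad7 were not. Id1, a direct transcriptional target of BMP signalling and an inhibitor of helix-loop-helix factors, was higher in KO at baseline and rose after PHx in WT. WT mice had 6.44, 7.75, 2.68, 3.85 and 12.2 CPM at baseline and KO mice had 44.6, 15.5, 44.5, 12.2 and 34.9 CPM. The groups did not overlap, but the highest WT mouse and the lowest KO mouse were almost level, at 12.16 and 12.17 CPM. Id1 was 4.61-fold higher in KO at baseline (log2 change 2.21, SE 0.54, adjusted p 0.00847). Id1 is also expressed outside hepatocytes, and besides the macrophage markers the summed level of 10 stellate cell markers was higher there, at 471 to 644 CPM in KO against 180 to 306 CPM in WT, and their part in the Id1 values, as in the pathway genes called at baseline, was not tested. After PHx WT mice had 4.58, 65.3, 20.6, 53.5 and 28.7 CPM, where the 30 h mouse was under its own 6.44 CPM at baseline and the other 4 were above all WT baseline values. The WT response was 5.25-fold (log2 change 2.39, SE 0.54, adjusted p 0.00510). KO mice had 46.1, 38.4, 54.1, 58.3 and 35.2 CPM after PHx, a log2 change of 0.61 (SE 0.51, adjusted p 0.372) from their baseline. KO and WT after PHx overlapped (0.43, SE 0.51, adjusted p 0.580), and the difference of the responses, -1.78 (SE 0.73), had an unadjusted p of 0.0250 and an adjusted p of 0.294.

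Bmp6, the iron-regulated ligand, was low in all groups, from 0.813 to 4.59 CPM. It was lower after PHx than at baseline in 5 of 5 WT mice and 4 of 5 KO mice, the exception being the 30 h KO mouse. The log2 changes were -0.74 (SE 0.37, adjusted p 0.165) in WT and -0.93 (SE 0.37, adjusted p 0.0602) in KO. With each mouse as a block the KO value was -1.12 (adjusted p 0.0398), and without the 30 h KO mouse after PHx it was -1.42 (adjusted p 0.00430). Bmp6 is made mainly by sinusoidal endothelial cells, whose 15 markers summed to 346 to 406 CPM in WT and 397 to 487 CPM in KO at baseline and to 151 to 285 and 155 to 354 CPM after PHx. Their part in the Bmp6 values was not tested. Bmp6 also shares 224 exon bases with Txndc5 on the opposite strand. Smad7, the inhibitory SMAD that closes the feedback loop, ranged from 4.89 to 29.4 CPM and overlapped in every pair of groups. Its largest log2 change was 0.60 in KO against WT after PHx (SE 0.38, adjusted p 0.258). In the 10 fits that left out 1 library this value ran from 0.27 to 0.95 and was not called (adjusted p 0.0700 to 0.646).

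Over all 10 genes, the number called is read against the share of all tested genes called in the same direction. At baseline 1 gene was higher in KO (Id1) and 0 were lower, where 11.1% of all genes were called higher and 4.89% lower. After PHx 0 were higher and 2 lower (Tfrc, Tfr2), against 16% and 8.2%. In the WT response 2 were higher (Id1, Tfrc) and 1 lower (Hamp2), against 11.4% and 8.68%. In the KO response 0 were higher and 1 lower (Hamp2), against 17.5% and 12.1%. For the difference of the responses 0 were called by edgeR either way, against 0.164% and 0.225%, with unadjusted p under 0.05 for Tfrc and Id1, and 0 in DESeq2. With 10 genes, counts of 0 to 2 say little beside these shares. The shares also move with the fit: in one of the compared samples alone, 2846 genes were higher and 2396 lower of 13286 at baseline, and 1127 and 218 of 13884 after PHx. Scaling by library total alone raised the higher calls from 69.5% to 96.9% of all genes called at baseline, from 66.1% to 92.9% after PHx, from 56.8% to 86.7% in the WT response and from 59.1% to 80.9% in the KO response, and lowered them from 42.1% to 15.8% for the difference. The median log2 change of the 10 genes was 0.18 at baseline, -0.06 after PHx, 0.00 for the WT response and -0.19 for the KO response, beside -0.03, -0.01, 0.04 and 0.10 over all genes.

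**Figure D3:**
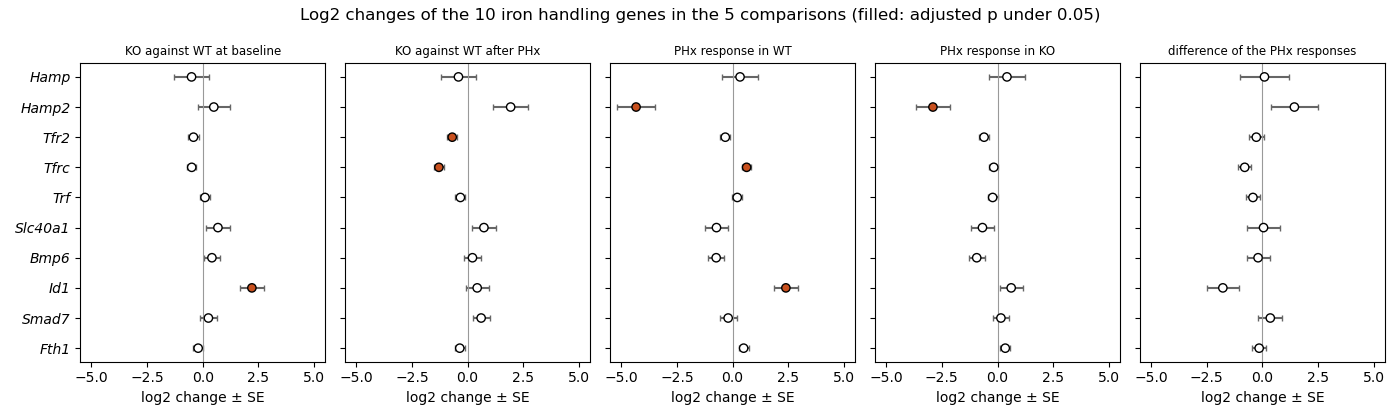
Log2 changes with SE bars of the 10 genes in the 5 comparisons, filled where the adjusted p is under 0.05. Hamp2 lies far to the left in both responses, and the bars of Hamp cross 0 in all 5 panels.

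The wider hepcidin pathway list holds 40 genes, of which 36 were tested. At baseline 6 were higher in KO and 0 lower, where 11.1% and 4.89% of all genes were, with a median log2 change of 0.07 (-0.03 over all genes). Those with the lowest adjusted p were Fstl1, a follistatin-like secreted protein (log2 change 1.58, SE 0.24, adjusted p 0.000151), Bambi, a decoy receptor (1.35, SE 0.25, 0.000954), the inhibitory Smad6 (1.10, SE 0.26, 0.00628) and Id4 (1.98, SE 0.51, 0.0114). Bambi and Smad6, like Smad7, dampen BMP signalling and are themselves induced by it. After PHx 8 were higher and 3 lower in KO (16% and 8.2% of all genes), with a median of 0.29 (-0.01 over all genes). Bambi (2.09, SE 0.26, adjusted p 1.14e-05), the endothelial BMP receptor Acvrl1 (1.85, SE 0.34, 0.000538) and Smad6 (1.16, SE 0.26, 0.00270) led those higher. The 3 lower were hemojuvelin, the BMP co-receptor that hepcidin expression needs (Hjv, -1.07, SE 0.26, adjusted p 0.00525), the protease Pcsk7 (-0.81, SE 0.25, 0.0206) and Fgl1 (-1.25, SE 0.39, 0.0240). These 3 calls were lost in a fit of the compared samples alone, which left 3 higher and 0 lower, and without the 30 h samples 5 were higher and 1 lower. Markers of some other cell types were higher in KO after PHx as well: 4 of 10 for stellate cells (307 to 551 CPM summed in KO against 204 to 265 CPM in WT), 4 of 12 for macrophages (185 to 547 against 101 to 487 CPM) and 5 of 7 tested for cholangiocytes (123 to 564 against 21.7 to 241 CPM). Of sinusoidal endothelial markers 1 of 15 was higher, and of 10 hepatocyte markers 0 were higher and 2 lower. Of those tested, 0 of 5 neutrophil and 0 of 4 lymphocyte markers were called, and 3 of 6 erythroid markers were lower. Their part in the pathway genes was not tested.

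With PHx, 3 genes of the pathway list were higher and 4 lower in WT (median -0.25), where 11.4% and 8.68% of all genes were (median 0.04). In KO 5 were higher and 8 lower (median -0.06), where 17.5% and 12.1% of all genes were (median 0.10). Bmper, a secreted BMP-binding protein, rose from 0.376 ± 0.312 to 11.3 ± 9.39 CPM (SD, n = 5) in WT and from 0.806 ± 0.197 to 23.6 ± 10.8 CPM in KO (log2 changes 4.95 and 4.86, adjusted p 9.93e-05 and 0.000259). Fgl1, a hepatokine that binds BMP ligands, rose 4.64-fold and 2.82-fold (adjusted p 0.00105 and 0.00916). Tmprss6, the protease that cleaves hemojuvelin and so restrains hepcidin, fell by 1.37 in WT and by 1.30 in KO (adjusted p 0.0143 and 0.0148), and Smad9 fell by 1.65 and by 1.77 (adjusted p 0.00343 and 0.00231). In the WT and KO responses the median log2 change was -0.75 and -0.79 for hepatocyte markers, and -0.55 and -0.56 for sinusoidal endothelial markers. It was 0.995 and 1.18 for cholangiocyte markers, and 5.70 and 2.52 for neutrophil markers. Their part in the pathway genes that changed with PHx was not tested. No gene of the list was called by edgeR for the difference of the responses, and 1 was by DESeq2.

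**Figure D4:**
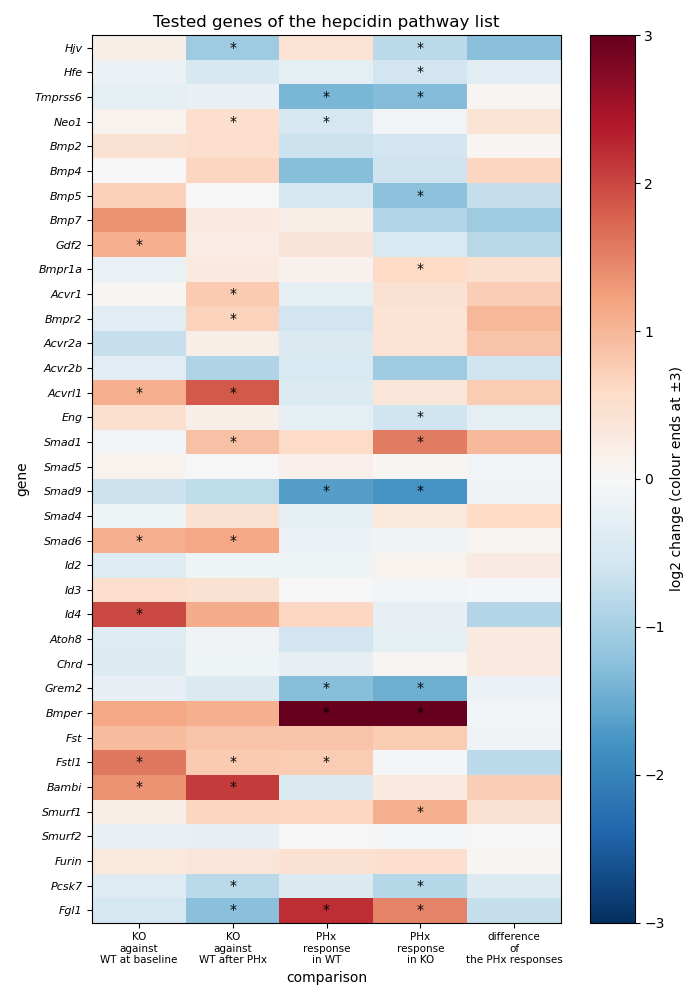
Log2 changes of the 36 tested genes of the hepcidin pathway list (rows) in the 5 comparisons (columns), red for higher and blue for lower, with colour ending at ±3 and an asterisk where the adjusted p is under 0.05. Bmper is the darkest red in both responses, and the last column holds no asterisk.

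The inflammatory list holds genes of the route through STAT3 and 19 of its 20 genes were tested. At baseline 5 were higher in KO and 0 lower, among them Lcn2, a siderophore-binding acute phase protein (log2 change 3.34, SE 0.72, adjusted p 0.00330), and Socs3, the feedback inhibitor of STAT3 (2.44, SE 0.57, 0.00632). Over all genes 11.1% were higher and 4.89% lower. In the WT response 7 were higher and 0 lower (11.4% and 8.68% of all genes), with Lcn2 at 8.96 (SE 0.92, adjusted p 5.87e-06) and Saa2, a serum amyloid, at 7.86 (SE 0.84, 9.02e-06). In the KO response 6 were higher and 3 lower (17.5% and 12.1% of all genes), and the median log2 change of the list was 0.85 in WT and 0.86 in KO, beside 0.04 and 0.10 over all genes. The summed level of 8 neutrophil markers was 0.463 to 0.850 CPM in WT and 1.78 to 8.03 CPM in KO at baseline, and 1.41 to 44.2 CPM in WT and 3.20 to 82.5 CPM in KO after PHx. Of these markers S100a8 was higher in KO at baseline, 4 of the 5 tested rose in the WT response and 1 in the KO response, while Ly6g, Camp and Mpo stayed under 1 CPM in every library. Their part in the values of the inflammatory list was not tested. Saa1 and Saa2, close paralogs whose reads the counting may split, were lower in KO after PHx (-2.26 and -2.28, adjusted p 0.0127 and 0.0155), but neither was called without the 30 h samples. Both were also among the 5 genes called higher in KO at baseline. The difference of their responses, which takes in that higher start, was -4.22 and -5.13 (adjusted p 0.0418 and 0.0176). Without KO mouse 8 at baseline it was -3.41 and -4.27. With each mouse as a block it was -3.87 and -4.68 and not called (adjusted p 0.196 and 0.142). The Saa1 call was also lost in 14 of the 20 fits that left out 1 library (adjusted p 0.0536 to 0.0864) and without the 30 h samples (0.0719), while the Saa2 call held in all of these. Hamp, which the same route is known to induce, had no call in any of these comparisons.

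Of 36 tested genes of iron uptake, storage and export, 3 were higher and 3 lower in KO at baseline (11.1% and 4.89% of all genes), and 6 and 5 after PHx (16% and 8.2%). After PHx a fit of the compared samples alone left 2 and 1. Steap2, a metalloreductase, was higher in KO at both stages (2.15, SE 0.34, adjusted p 0.000191, and 2.00, SE 0.33, 0.000247). The lower genes at baseline were the ferritin receptor Ncoa4 (-0.63, SE 0.17, adjusted p 0.0178) and the iron regulatory proteins Ireb2 (-1.13, SE 0.35, 0.0320) and Aco1 (-0.57, SE 0.19, 0.0486), and these 3 calls were lost under scaling by library total alone. After PHx Slc11a2, the transporter that moves iron out of endosomes alongside Tfrc, was lower in KO (-0.99, SE 0.21, adjusted p 0.00211). In the PHx responses 7 were higher and 7 lower in WT (2 and 4 with each mouse as a block), and 3 and 6 in KO, where 11.4% and 8.68%, and 17.5% and 12.1%, of all genes were. The median of the list was between -0.06 and -0.03 in these 4 comparisons, and between -0.03 and 0.10 over all genes. Of 16 genes of haem synthesis and breakdown, 0 were higher and 1 lower at baseline, and 0 higher and 4 lower in KO after PHx, with Ppox at -0.78 (adjusted p 0.0129) and a list median of -0.51, where 8.2% of all genes were lower. The 4 lower calls became 0 in a fit of the compared samples alone and 1 without the 30 h samples. In the responses 1 was higher and 1 lower in WT (1 and 3 with each mouse as a block), and 1 and 4 in KO. Hmox1, which frees iron from haem, rose with PHx by 2.38 in WT and 2.13 in KO (adjusted p 0.00277 and 0.00440). Erythroid markers moved with the haem genes, and their part was not tested: the summed level of 11 markers was 319 to 497 CPM in WT and 156 to 267 CPM in KO at baseline, and 138 to 429 CPM in WT and 79.5 to 177 CPM in KO after PHx. Of the 6 tested, the erythroid enzyme Alas2 was lower in KO at baseline (-1.37, adjusted p 0.0110), and 3 were lower in KO after PHx, namely Alas2 (-1.54, adjusted p 0.00349) and the globins Hba-a2 (-1.07, 0.0312) and Hbb-bt (-2.07, 0.0339). Without the 30 h samples 1 of these 3 calls was left. The red cell membrane genes Slc4a1, Epb42 and Ermap stayed under 1 CPM in every library.

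Genes most like Hamp, Id1 and Tfrc across the 20 libraries are given as a description, from log2(CPM + 1) over 12538 other genes with a mean of at least 1 CPM; the libraries share groups, mice and scaling. For Hamp they included Rab10os (Pearson r 0.80) and Gm28229 (0.74), and the r after subtracting group means was 0.80 and 0.79. For Id1 they were Cd63 (0.85), Clcf1 (0.84) and Clca3a1 (0.84), falling to 0.57, 0.62 and 0.56 without group means. For Tfrc they were Gtpbp4-ps1 (0.82), Lgals8 (0.80) and Upf3b (0.80), with 0.13, 0.28 and 0.41 left.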

How the data were processed

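Poly(A) RNA from 20 liver samples in 4 groups of 5 was analysed from raw counts per Ensembl gene deposited by the authors, 1 file per library. Per the design text, RNA with an integrity number above 8 (1000 ng) was made into TruSeq libraries for paired-end sequencing, and reads were trimmed with fastp 0.20.0, checked with FastQC 0.11.5 and aligned to mm10, with uniquely mapped reads counted; the submitters' processing notes also name Trimmomatic 0.36. The aligner, counter, strand setting and annotation are not given in the sources used here. Symbols came from GENCODE M21 (46005 of 46603 identifiers).

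Genes were filtered with filterByExpr, scaled by TMM and tested in edgeR 4.0.16 (R 4.3.3) with the two-sided quasi-likelihood test, 1 fit with 4 group means and 5 contrasts, with Benjamini-Hochberg adjustment over 14661 genes. The SE is the log2 change over the root of its F statistic. Alternatives were DESeq2 1.42.0, other scalings, no filter, the compared samples alone, a time term, the mouse as a block and each library left out; leaving out the 30 h samples was added after the values were seen. An exact test of the Hamp2 to Hamp ratio, also run after the values were seen, ignored the pairing of samples by mouse and is not used. Binomial intervals came from SciPy 1.17.1. The fit was tested on simulated data in which 200 genes had a log2 change of 2. It called 68% to 75.5% of them in the comparisons of 2 groups. For the difference of the responses it called 49.5%, so a gene not called there may still differ.

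The labels give the same mouse number at both stages, except for WT baseline replicate 1, taken as mouse 1 by elimination. Residuals of the same mouse correlated at -0.05 to 0.15 and those of different mice at -0.23 to 0.26, so the pairing rests on the labels. The genes described, the gene lists and the rule for naming genes (all 10 genes; from each list at most 4 called genes per direction and comparison, by adjusted p; Eed; 3 genes most like Hamp, Id1 and Tfrc) were chosen with earlier results of these data known. Upstream windows came from the RefSeq promoter table and hairpins from GENCODE transcripts. A few genes that this rule or a list would name are not reported here.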

Additional observations from a re-analysis of the deposited data

Results flagged for a closer look

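In 40 sets of 5 libraries (10 genes by 4 groups), 3 held a library whose gap to its nearest neighbour was over 0.71 of the group's range; chance flags about 1 in 20 such sets. Hamp2 in KO after PHx was 12.9 CPM in mouse 12, sampled at 30 h, with the next library at 3.09 CPM. Bmp6 in the same library was 4.21 CPM, with the next at 1.79 CPM. Slc40a1 in WT after PHx was 122 CPM in mouse 3, sampled at 40 h, with the next at 61.2 CPM.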

How the results depend on the processing

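Of 990 recomputed log2 changes of the 10 genes, 907 kept their direction and side of the threshold, 18 lost a call, 21 gained one and 44 changed sign; none of these 44 was called under either setting, and the causes were not tested. Scaling by library total alone, which moved the median of all genes by 0.48 at baseline, called 2 genes at baseline, 5 in the WT response and 2 in the KO response. It turned Tfr2 to 0.043, Tfrc to 0.0050 and Fth1 to 0.27 at baseline, Trf to 0.031 after PHx, Tfr2 to 0.033 and Smad7 to 0.11 in the WT response, Tfrc to 0.10 and Trf to 0.016 in the KO response, and Hamp to -0.094 for the difference. With no filter 1 gene was called after PHx, and Slc40a1 was -0.054 for the difference. A fit of the compared samples alone called 2 at baseline and 1 after PHx. DESeq2 called 3 in the KO response, as did the time term, which gave Hamp -0.062 and Slc40a1 -0.20 for the difference.

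With the mouse as a replicate block, 3 genes were called in the KO response, with mouse 1 in or out. Hamp in the WT response was -0.87 (-0.070 without mouse 1), and Slc40a1 for the difference was -0.58 (-0.49). Among the 10 genes the block changed no other call than those of Tfr2, Bmp6 and, without mouse 1, Tfrc. Over all genes the difference of responses had 1 higher and 2 lower calls with the block and 192 and 184 in DESeq2, against 24 and 33. Without the 30 h samples, 1 gene was called after PHx and 2 in the KO response, Bmp6 after PHx was -0.37, Hamp in the KO response -0.11 and Hamp for the difference -0.76.

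With each library left out in turn, 1 to 3 genes were called after PHx and 1 to 2 in the KO response. Values that changed sign ran from -0.95 to 0.083 (Hamp) and -0.28 to 0.43 (Bmp6) after PHx, from -0.15 to 0.65 (Hamp), -0.016 to 0.36 (Trf) and -0.55 to 0.075 (Smad7) in the WT response, from -0.11 to 0.72 (Hamp) and -0.18 to 0.29 (Smad7) in the KO response, and from -0.44 to 0.57 (Hamp), -0.50 to 0.40 (Slc40a1) and -0.026 to 0.70 (Smad7) for the difference. Without KO mouse 10 after PHx, the difference of responses had 412 higher and 296 lower calls. Bmp6 and, after PHx, Hamp2 had few reads, which limits what a change in them can show.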
